A study of Mus musculus with 16 samples.

Results

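The machinery that fuses and divides mitochondria was followed in mice carrying a mutation ahead of the Ppargc1a coding sequence. The genes are Mfn1, Mfn2, Opa1, Oma1, Yme1l1, Dnm1l, Fis1, Mff, Mtfr1 and Mtfp1. They were taken by symbol from a list drawn up with earlier results of these data known, and all 10 were listed in both deposited tables, among 16844 genes with a p-value in both. RNA came from quadriceps muscle and brown adipose tissue of male C57BL/6 mice, 10 weeks old and kept at room temperature. In each tissue 4 libraries of mice homozygous for the allele labelled uORF-TAA were compared with 4 of wild-type littermates, which makes 16 libraries in all. Whether a mouse gave both tissues is not stated in the labels. Each tissue has a single table of the authors' comparison, so each gene is shown by its mean over 8 libraries, its log2 fold change and that fold change's standard error (SE). No values per library were analysed here. Positive fold changes mean a higher level in uORF-TAA. This takes the genotype named first in each table as the numerator, an assumption that no header settles. The brown fat sign was turned accordingly.

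Mitochondria form a network that is remodelled by fusion and division. The mitofusins MFN1 and MFN2 are GTPases that join outer membranes, and OPA1 is the GTPase that joins inner membranes and keeps cristae closed. The inner membrane proteases OMA1 and YME1L cut OPA1 and so set the balance of its long and short forms. Division is carried out by DRP1, the dynamin-like GTPase encoded by Dnm1l, which is drawn to the outer membrane by receptors such as MFF, while FIS1, MTFR1 and MTFP1 are further proteins tied to fragmentation. Ppargc1a encodes PGC-1alpha, a coactivator of nuclear receptors and other transcription factors that drives mitochondrial gene expression in muscle and brown fat. Mfn2 is a known target of PGC-1alpha and its partner ERRalpha in muscle. A uORF is a short reading frame upstream of the main one, and TAA is a stop codon.

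The estimated depth per library was 11.4 to 31.8 M counts (M, mega) for quadriceps and 11.01 to 17.8 M for brown fat. The labelled tissues were checked against marker genes. Levels are given as CPM, a gene's part of the summed mean counts of its table scaled to 1000000. The summed level of 8 muscle fibre markers was 178635 CPM in quadriceps and 8534 CPM in brown fat, so brown fat stood at 4.78% of the quadriceps value. The summed level of 8 brown adipocyte markers was 23950 CPM in brown fat and 438.8 CPM in quadriceps. No marker of these lists was at 0 in either tissue, and single brown adipocyte markers ran from 0.267 to 280.1 CPM in quadriceps. The brown fat libraries therefore hold some muscle fibre RNA, and its part in the levels below was not tested. Ppargc1a had a deposited log2 fold change of 0.06 ± 0.13 (SE) in quadriceps and 0.0016 ± 0.11 (SE) in brown fat in the authors' deposited table. The level of an mRNA whose upstream frame is mutated does not check the genotype labels.

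The first question was whether the genotype moved any gene of fusion or division. In quadriceps, 0 of the 10 genes had an adjusted p under 0.05 by DESeq2 in the authors' deposited table, where 0% of 17521 genes were called. The count in brown fat was 0 of 10 as well, where 0.0863% of 9272 genes with an adjusted p were called. At an unadjusted p under 0.05 the count was also 0 of 10 in each tissue, against 2.00% of all quadriceps genes tested and 2.07% of those of brown fat. The adjusted p of every member was 1.00 in both tables (DESeq2, Benjamini-Hochberg). The smallest unadjusted p was 0.283 for Opa1 in quadriceps and 0.456 for Yme1l1 in brown fat, in the authors' deposited tables. All 20 of the 95% intervals, 10 per tissue, spanned 0. To be the only gene called, a member would have needed a deposited log2 fold change of 0.40 to 0.60 in quadriceps, depending on its SE. In brown fat the same range was 0.42 to 0.56. Deposited fold changes behave as shrunken towards 0, so the change needed without shrinkage would have been larger. Other genes were called in brown fat, and the largest p among them was 2.96e-05 (DESeq2).

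**Figure D1:**
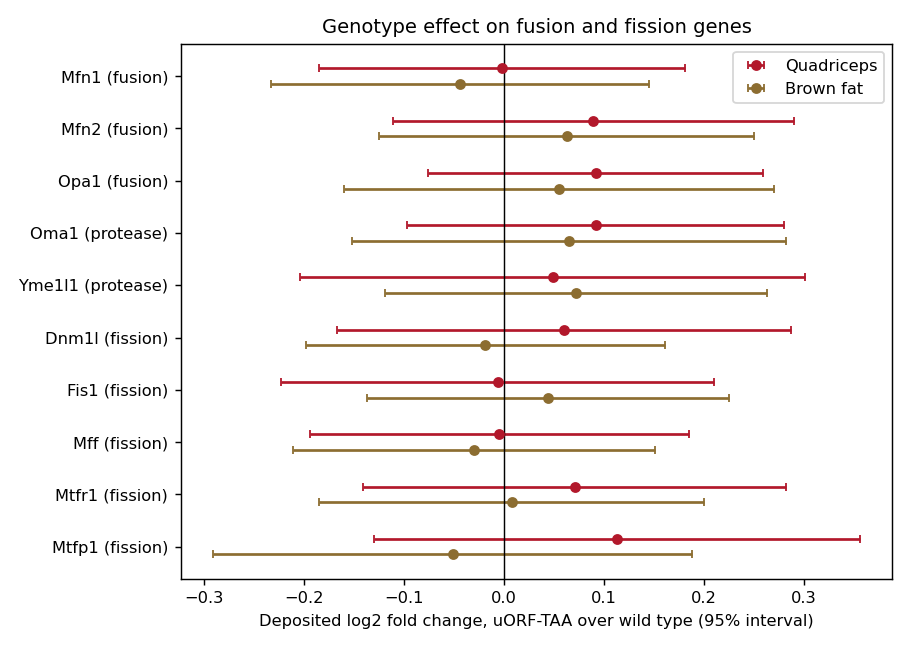
Deposited log2 fold change of each gene (x axis, uORF-TAA over wild type) with its 95% interval, for quadriceps and brown fat (4 libraries per genotype each). Every interval crosses 0, and the point estimates lie between -0.05 and 0.11.

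Mfn2 was the most abundant of the group. Its mean normalized count was 9360 in quadriceps and 6802 in brown fat in the authors' deposited tables. From that mean and the fold change with its shrinkage undone, wild-type quadriceps was estimated at 9008 and uORF-TAA at 9711, a difference of 7.80% of the wild-type value. The same estimate in brown fat was 6624 in wild type and 6980 in uORF-TAA. The deposited log2 fold change of Mfn2 was 0.09 ± 0.10 (SE) in quadriceps (p = 0.382) and 0.06 ± 0.10 (SE) in brown fat (p = 0.511) in the authors' deposited tables. Without shrinkage the 95% interval in quadriceps ran from 0.911-fold to 1.28-fold, and in brown fat from 0.901-fold to 1.23-fold. The 2 genotypes were thus closer than the error in each tissue, and both intervals hold higher as well as lower values in uORF-TAA.

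Mfn1, the other mitofusin, had the point estimate nearest to 0 in quadriceps. Its deposited log2 fold change there was -0.0019 ± 0.093 (SE), at a mean normalized count of 5682 in the authors' deposited table. The estimated genotype means in quadriceps were 5686 in wild type and 5678 in uORF-TAA. Brown fat had a mean normalized count of 1894 and a log2 fold change of -0.04, with an SE of 0.10, in the authors' deposited table. The 95% interval without shrinkage was 0.862-fold to 1.16-fold in quadriceps and 0.823-fold to 1.13-fold in brown fat.

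Opa1 had the smallest SE of the group in quadriceps and the largest Wald statistic, the fold change divided by its SE, at 1.07. Its mean normalized count was 3754 in quadriceps and 2261 in brown fat in the authors' deposited tables. The deposited log2 fold change was 0.09 ± 0.09 (SE) in quadriceps (p = 0.283) and 0.06 ± 0.11 (SE) in brown fat (p = 0.613) in the authors' deposited tables. In quadriceps 83.3% of genes had a Wald statistic no larger in size than that of Opa1, so it stood well inside the spread of all genes.

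The stretch of DNA ahead of these 3 fusion genes and of Fis1 is shown because PGC-1alpha acts through factors bound near gene starts. Sequences are from RefSeq on GRCm38.p6, which is not the mm9 build named for these data, and 9 of the 10 genes had an entry, with Mtfr1 lacking one. In the 250 bases before each RefSeq start, both strands were searched for 4 motifs: the ERR element TNAAGGTCA, the NRF1 core GCATGCGC, the GABP site CCGGAAGT and the cAMP element TGACGTCA. The lines below give the gene's own strand, 5′ to 3′, up to the start or to the first annotated exon. Capitals mark a motif match. Mfn2 is at chr4:147904910-147905159 on the minus strand, for the most upstream of its 3 listed starts. Mfn1 is at chr3:32529232-32529464, Opa1 at chr16:29579084-29579333 and Fis1 at chr5:136953025-136953274, each on the plus strand.
Mfn2: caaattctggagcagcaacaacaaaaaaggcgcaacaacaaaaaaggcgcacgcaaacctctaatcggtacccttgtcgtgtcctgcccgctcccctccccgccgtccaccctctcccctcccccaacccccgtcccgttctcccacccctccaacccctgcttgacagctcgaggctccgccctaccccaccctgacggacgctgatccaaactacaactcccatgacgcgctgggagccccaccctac
Mfn1: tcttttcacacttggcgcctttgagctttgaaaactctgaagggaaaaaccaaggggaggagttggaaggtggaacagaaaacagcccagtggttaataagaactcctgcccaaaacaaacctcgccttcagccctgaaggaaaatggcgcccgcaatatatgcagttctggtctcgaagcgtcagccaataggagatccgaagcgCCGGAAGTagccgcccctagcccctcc
Opa1: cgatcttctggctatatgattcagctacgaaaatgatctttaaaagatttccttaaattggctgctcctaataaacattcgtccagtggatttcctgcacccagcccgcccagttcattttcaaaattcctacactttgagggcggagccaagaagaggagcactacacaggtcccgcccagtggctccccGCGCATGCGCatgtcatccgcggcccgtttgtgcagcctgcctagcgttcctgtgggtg
Fis1: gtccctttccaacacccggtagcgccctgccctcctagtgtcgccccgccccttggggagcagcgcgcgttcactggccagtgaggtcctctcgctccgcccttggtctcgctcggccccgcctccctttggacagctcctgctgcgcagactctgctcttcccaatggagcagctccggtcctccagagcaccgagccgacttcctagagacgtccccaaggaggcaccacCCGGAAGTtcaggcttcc

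The Opa1 stretch held the NRF1 core on both strands, overlapping within GCGCATGCGC from position -59 on. It was the 1 gene of 9 with this motif, against 4.39% of 12326 genes of both deposited tables with a promoter entry. The GABP site stood at position -44 in Mfn1 and at -18 in Fis1, again 2 of 9 genes, against 5.53%. The ERR element was found in 0 of 9 (0.9005% of the 12326 genes) and the cAMP element in 0 of 9 (2.78%). Matches of different motifs did not overlap. These are letters found in a short window and not evidence of binding, and a count of 0 says nothing about sites outside that window. The genes with a match, Mfn1, Opa1 and Fis1, were at -0.0019, 0.09 and -0.0060 on the log2 scale in the quadriceps values of the authors' deposited table, and each of their 95% intervals spanned 0.

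The genes of the proteases that cut OPA1 had point estimates above 0 in both tissues and did not pass the test. Oma1 had a mean normalized count of 343.1 in quadriceps and 170.7 in brown fat in the authors' deposited tables. Its deposited log2 fold change was 0.09 ± 0.10 (SE) in quadriceps and 0.07 ± 0.11 (SE) in brown fat in the authors' deposited tables. Yme1l1, at mean normalized counts of 2743 and 1715, stood at 0.05 ± 0.13 (SE) and 0.07 ± 0.10 (SE) in log2 units, again from the authors' deposited tables. The estimated spread between libraries of one genotype was widest for Yme1l1 in quadriceps, with a standard deviation (SD) of 0.28 on the log2 scale, against 0.17 in brown fat. Over all members and both tissues this SD ran from 0.14 to 0.28.

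Dnm1l, which encodes the division GTPase, had a mean normalized count of 2305 in quadriceps and 1157 in brown fat in the authors' deposited tables. The deposited log2 fold change of Dnm1l was 0.06 ± 0.12 (SE) in quadriceps and -0.02 ± 0.09 (SE) in brown fat in the authors' deposited tables. Mff, the DRP1 receptor gene, stood at -0.0043 ± 0.097 (SE) and -0.03 ± 0.09 (SE) in the same order in the authors' deposited tables. Fis1 was at -0.0060 ± 0.11 (SE) and 0.04 ± 0.09 (SE) in the authors' deposited tables. The division GTPase gene and both outer membrane genes thus lay within 1 SE of 0 in each tissue. In a GRCm38 annotation, exons of Dnm1l and Mff overlap antisense transcripts of the opposite strand, Gm49521 and C430014B12Rik. Neither is listed in the tables, and how the authors' counting treated strand is not given in the sources used here.

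Mtfr1 and Mtfp1, 2 genes of proteins tied to fragmentation, had the lower counts of the division group. Mtfr1 had deposited log2 fold changes of 0.07 ± 0.11 (SE) in quadriceps and 0.0078 ± 0.098 (SE) in brown fat in the authors' deposited tables. Mtfp1 had the largest point estimate of all 10 genes in quadriceps, 0.11 ± 0.12 (SE), and the lowest in brown fat, -0.05 ± 0.12 (SE), in the authors' deposited tables. Its mean normalized count was 329.2 in quadriceps and 356.4 in brown fat in the authors' deposited tables. From these, wild type and uORF-TAA were estimated at 310.7 and 347.7 in quadriceps and at 366.3 and 346.6 in brown fat. The 95% interval of Mtfp1 without shrinkage ran from 0.878-fold to 1.43-fold in quadriceps and from 0.731-fold to 1.23-fold in brown fat, where it was the widest of the 10.

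By the size of the Wald statistic the members sat near the middle of the genes tested. Their point estimates leaned above 0 in quadriceps, and in brown fat the count above 0 was near the share of all genes. In quadriceps 7 of 10 had a log2 fold change above 0, against 51.7% of all genes, with a median of 0.066 against 0.0024 over all genes. In brown fat 6 of 10 were above 0, against 51.2%, with a median of 0.026 against 0.0015. Among all genes with a mean of at least 50, 50.9% were above 0 in quadriceps (median 0.0021) and 53.6% in brown fat (0.0064). The median size of the Wald statistic in quadriceps was 0.588 in the members and 0.567 in all genes, and in brown fat it was 0.464 and 0.526. By role, the fusion GTPases had 2 of 3 above 0 in each tissue, the proteases 2 of 2 in each, and the division genes 3 of 5 in quadriceps and 2 of 5 in brown fat. These counts are descriptions, and no role was tested against another.

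**Figure D2:**
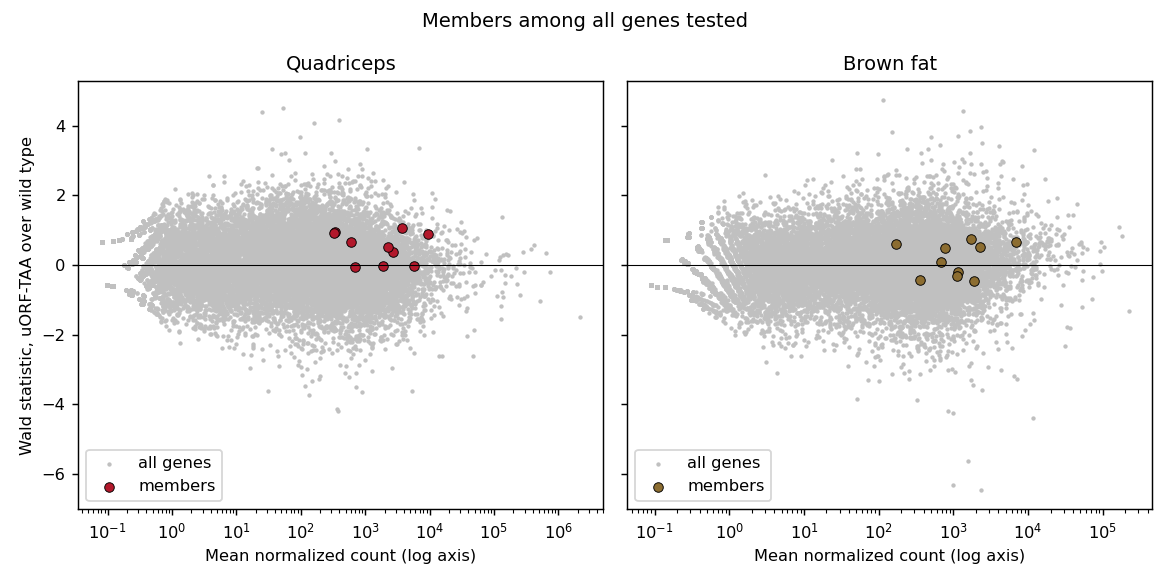
Wald statistic (y axis, uORF-TAA over wild type) against mean normalized count (x axis, log scale) for every gene with a p-value in quadriceps and brown fat, with the members as large points. The members lie inside the cloud of all genes, and the largest in size is 1.07.

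The genotype effects were then compared between tissues. No member differed at an adjusted p of 0.05, in a normal test of the difference of the log2 fold changes with Benjamini-Hochberg adjustment over 16844 genes, where 0% of genes were called. The smallest unadjusted p was 0.346, for Mtfp1, whose difference (quadriceps less brown fat) was 0.16 ± 0.17 (SE). At an unadjusted p under 0.05 the count of members was 0, against 1.16% of all genes. The differences of the 10 genes ran from -0.05 for Fis1 to 0.16 for Mtfp1. The 95% interval of the Mfn2 difference ran from -0.25 to 0.30 and that of Opa1 from -0.24 to 0.31. These limits are on the deposited, shrunken scale and treat the tissues as independent. Differences anywhere within them remain possible with these errors, and the limits would be wider without shrinkage. Under the opposite reading of the brown fat table the smallest unadjusted p among members was 0.276, for Mfn2.

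The levels of the genes differed far more than their genotype effects. Levels are compared between genes as CPM per kilobase (kb) of the longest coding transcript in GENCODE M21. Their error was approximated from the SE of the fold change and leaves out the choice of transcript. In quadriceps the order was Mfn2 at 102.5, Mfn1 at 59.2, Mff at 42.5, Fis1 at 34.9, Opa1 at 28.6, Yme1l1 at 27.7, Dnm1l at 27.6, Mtfp1 at 11.1, Mtfr1 at 9.74 and Oma1 at 8.51 CPM per kb. Opa1, Yme1l1 and Dnm1l did not differ from their neighbours among these 3 beyond that error, nor did Mtfp1 from Mtfr1. In brown fat Mfn2 led at 122.2 and was followed by Fis1 at 62.6, Mff at 42.0, Mfn1 at 32.4, Yme1l1 at 28.4, Opa1 at 28.3, Dnm1l at 22.7, Mtfp1 at 19.7, Mtfr1 at 17.8 and Oma1 at 6.95 CPM per kb. There Yme1l1 and Opa1 did not differ beyond the error, nor did Dnm1l from Mtfp1 or Mtfp1 from Mtfr1. Mfn2 stood first and Oma1 last in both tissues. Mfn1 was second in quadriceps and the fourth in brown fat, while Fis1 was the fourth and second. With coding length in place of transcript length the quadriceps order was the same, and in brown fat Dnm1l moved below Mtfp1 and Mtfr1. By count, Mfn2 stood at the 98.7th percentile of the quadriceps table and the 98.6th of the brown fat table, and Oma1 at the 69.5th and 54.7th.

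**Figure D3:**
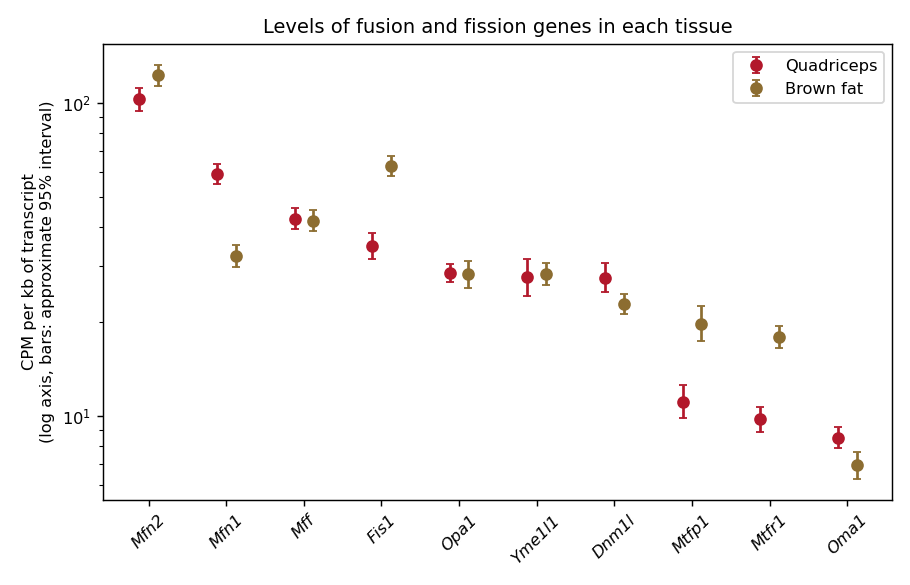
CPM per kb of transcript (y axis, log scale) of each gene in quadriceps and brown fat, with approximate 95% intervals. Mfn2 is highest and Oma1 lowest in both tissues, and Mfn1 and Fis1 change places.

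Ratios of 2 genes within a tissue do not depend on how each table was scaled. Gene length drops out between tissues only where each gene has the same transcripts in both, which was not examined. The tables gave 1.65 counts of Mfn2 per count of Mfn1 in quadriceps and 3.59 in brown fat. The log2 ratio was 0.72 ± 0.08 (approximate SE) in quadriceps and 1.84 ± 0.08 in brown fat, a 2.18-fold shift between the tissues. Opa1 stood at 0.661 counts per count of Mfn1 in quadriceps and 1.19 in brown fat, a 1.81-fold shift. The ratio of Mfn2 to Opa1 moved less, from 2.49 in quadriceps to 3.01 in brown fat. Mfn1 was therefore the fusion gene with the larger share of the 3 in quadriceps than in brown fat. Among the division genes, counts of Dnm1l per count of Fis1 were 3.31 in quadriceps and 1.52 in brown fat, and those of Mff per count of Fis1 were 2.68 and 1.477. The ratio of Mtfr1 to Mtfp1 was nearly the same, 1.84 and 1.89. Counts of Yme1l1 were 8.0-fold those of Oma1 in quadriceps and 10.0-fold in brown fat. No test was run on these tissue differences, and their errors are approximations from the SE of the fold changes. In bulk tissue, fewer cells of a type and less RNA per cell cannot be told apart.

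**Figure D4:**
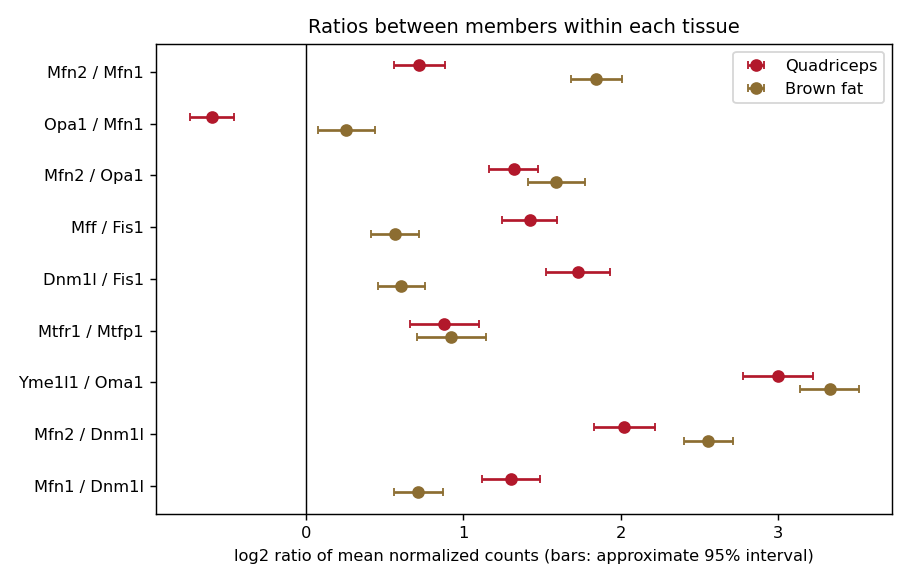
log2 ratio of mean normalized counts (x axis) for 9 pairs of members in quadriceps and brown fat, with approximate 95% intervals. The Mfn2 to Mfn1 ratio lies at 0.72 in quadriceps and 1.84 in brown fat, and the Mtfr1 to Mtfp1 ratio almost coincides.

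Levels set across the tissues depend on the scaling, since the tables were normalized separately. The 20 most abundant genes held 35.5% of the summed counts in quadriceps and 13.3% in brown fat. The 9275 genes whose mean reached 50 in both tables had a median log2 ratio of CPM (quadriceps over brown fat) of -0.91, or -0.48 with those 20 genes left out of each sum. Mfn1 was at 270.0 CPM in quadriceps and 147.7 in brown fat, a 1.83-fold ratio that was 2.46-fold with the 20 genes left out. Fis1, Mtfr1 and Mtfp1 were lower in quadriceps with ratios of 0.558, 0.546 and 0.563, and 0.7502, 0.734 and 0.756 with the 20 genes left out. Mfn2 had a ratio of 0.839 that turned to 1.13, and Yme1l1 one of 0.9745 that turned to 1.31, so their directions rest on the scaling. Against that median the log2 margin in favour of quadriceps was 1.78 ± 0.08 (approximate SE) for Mfn1 and 0.66 ± 0.08 for Mfn2. It was 0.07 ± 0.09 for Fis1 and 0.04 ± 0.09 for Mtfr1, which is within the error.

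The wider network of mitochondrial dynamics was read from 5 lists with 54 genes, all measured in both tissues. By DESeq2 in the authors' deposited tables, 0 of the 54 had an adjusted p under 0.05 in either tissue. At an unadjusted p under 0.05 the count was 1 of 54 in quadriceps and 0 of 54 in brown fat, against 2.00% and 2.07% of all genes, so neither count stood above that share. The gene in quadriceps was Kif1b, a kinesin motor gene, with a deposited log2 fold change of 0.20 ± 0.10 (SE) and an unadjusted p of 0.0392 in the authors' deposited table. In quadriceps 27 of the 54 genes were above 0 and 27 below, with a median of 0.00076. In brown fat 40 were above 0 and 14 below, with a median of 0.034, against 51.2% above 0 and a median of 0.0015 over all genes. All genes include many with low counts, and among those with a mean of at least 50 the values were 53.6% and 0.0064. Of these 54 genes 6 had no adjusted p in brown fat.

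The lean in brown fat was most even in 2 of the lists. Of 11 cristae organizers, the MICOS complex with its partners, 10 were above 0 in brown fat and 5 in quadriceps. Of 12 inner membrane proteases, prohibitins and scaffolds, 11 were above 0 in brown fat and 6 in quadriceps. Immt, which encodes the core MICOS subunit mitofilin, had a deposited log2 fold change of 0.09 ± 0.11 (SE) in brown fat in the authors' deposited table. Letm1, an inner membrane ion exchanger gene, was at 0.12 ± 0.12 (SE) and the prohibitin gene Phb2 at 0.09 ± 0.10 (SE) in brown fat in the authors' deposited table. All 8 brown adipocyte markers were above 0 in brown fat as well, with deposited log2 fold changes from 0.03 to 0.12 in the authors' deposited table. In quadriceps 7 of these 8 markers were also above 0, with a median of 0.064 against 0.083 in brown fat. Of 8 muscle fibre markers 7 were below 0 in brown fat, and the 8 values ran from -0.02 to 0.0066, with SEs of 0.053 to 0.076. The fold changes behave as shrunken, and brown fat genes with a mean under 1 had a median SE of 0.018. A small SE can thus also mark a value shrunk close to 0. The narrow range therefore does not show that muscle fibre RNA was equal between the genotypes. The part of either marker list in the lean was not tested. These list counts carry no test, and genes measured in the same libraries are not independent.

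Among 14 adaptors and regulators of DRP1, 7 were above 0 in quadriceps and 8 in brown fat. Akap1, an outer membrane anchor of protein kinase A, had the smallest p of the 54 genes in brown fat, with a deposited log2 fold change of 0.22 ± 0.12 (SE) and p = 0.0574 in the authors' deposited table. The authors' deposited table of quadriceps listed Akap1 at 0.13 ± 0.12 (SE). Senp5, a SUMO protease gene, was at 0.18 ± 0.10 (SE) in brown fat and Inf2, a formin gene, at -0.18 ± 0.13 (SE) in quadriceps in the authors' deposited tables. Of 10 outer membrane regulators of fusion, 5 were above 0 in quadriceps and 7 in brown fat. Fam73a and Fam73b, the older symbols of the mitoguardin genes Miga1 and Miga2, stood at 0.18 ± 0.12 (SE) and 0.17 ± 0.13 (SE) in quadriceps in the authors' deposited table. Of 7 genes of mitochondrial transport, 4 were above 0 in each tissue.

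**Figure D5:**
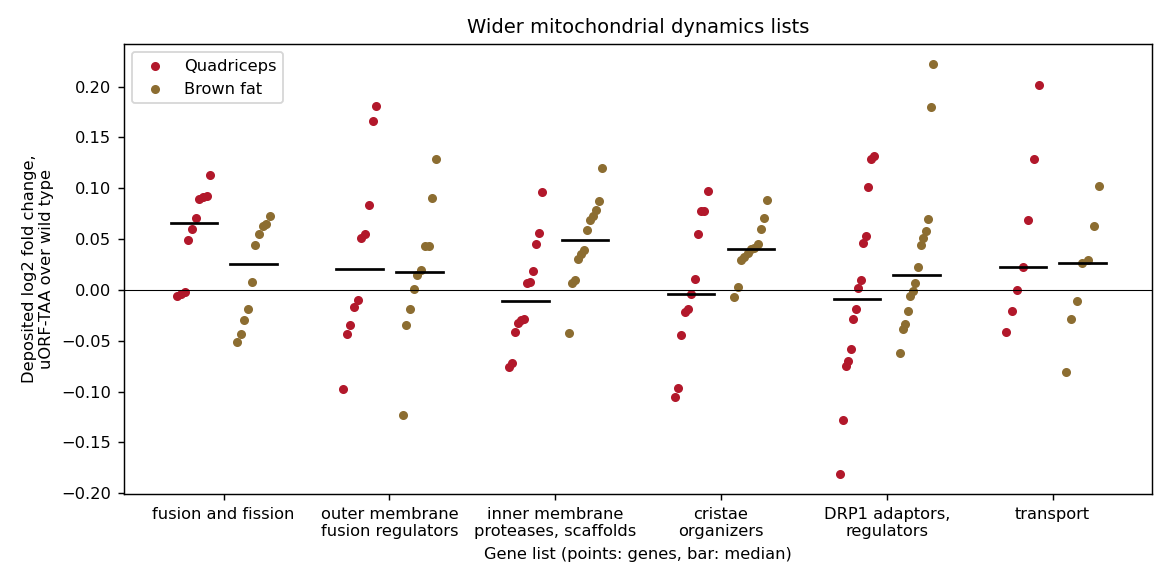
Deposited log2 fold change (y axis, uORF-TAA over wild type) of each gene in the fusion and fission group and the 5 wider lists, by tissue, with a bar at each median. The cristae and inner membrane lists lie mostly above 0 in brown fat, with medians of 0.040 and 0.049, and around 0 in quadriceps.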

How the data were processed

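Stranded mRNA libraries were read from one end, per the labels' protocols. STAR 2.5.1b, DESeq2 1.10.1 and the build mm9 are named in the submitters' processing notes, without the step each served. Which counter and annotation were used is not given in the sources used here. Per the file headers, the authors' tables give each gene a mean normalized count (here treated as a signal over 8 libraries), a log2 fold change with its standard error, the Wald statistic (a score), a p-value and an adjusted p-value, all made by the authors before they deposited them.

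The deposited fold changes behave as shrunken. Shrinkage was undone by taking the prior SD as 2 times the largest standard error of the table (0.269 in quadriceps, 0.255 in brown fat) and, of the 2 solutions this allows, the better measured one. Members kept 64.1% to 88.6% of their unshrunken value. This rests on the form of a ridge estimate, which no header states, and leaves the Wald statistic as deposited. The spread between libraries and the error of levels were derived from the same standard error, assuming equal groups and independent genes. Depth came from genes with a single read, whose mean fixes a library's size factor.

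Intervals are at 95% and normal. Members and lists were chosen with earlier results of these data known. Named genes are all members, Ppargc1a and, per wider list and tissue, genes among the up to 2 of smallest p, while marker lists are given as sums and ranges. Procedures were tested on simulated statistics. Python 3.11.15, numpy 2.4.6, scipy 1.17.1 and pandas 2.3.3 were used.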

Additional observations from a re-analysis of the deposited data

How the results depend on the processing

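The counts of 0 members and 0 wider genes called in each tissue were also 0 under every alternative run: adjustment over every gene with a p-value, genes with a mean of at least 10 or of at least 50, an adjusted p of 0.1 or 0.01, and an empirical null. A count at 0.01 could not exceed that at 0.05. Adjustment cannot lower a p-value, and the smallest unadjusted p of a member was 0.283 (DESeq2, quadriceps). Of these settings only the empirical null could therefore have changed the count of members. The count of 0 members differing between tissues was also 0 with the brown fat sign read the other way, a mean of at least 50 in both tables, an empirical null, an adjusted p of 0.1 and the shrinkage undone. There the smallest unadjusted p was 0.346 (normal test), so the filter on the mean and an adjusted p of 0.1 could not have changed the count. Subtracting the median and undoing the shrinkage changed no member's direction. A prior SD from the 99th percentile of the standard error, chosen after seeing the data, left the largest member values within their error. Reading brown fat with the sign as deposited turns every member by construction: Mfn1 0.0437, Mfn2 -0.0628, Opa1 -0.0555, Oma1 -0.0653, Yme1l1 -0.0725, Dnm1l 0.0185, Fis1 -0.0439, Mff 0.0296, Mtfr1 -0.00784 and Mtfp1 0.0512 (log2). The ratio of the highest to the lowest member level per kb was 12.0 in quadriceps and 17.6 in brown fat. It was 18.8 and 27.4 with coding length and 28.4 and 39.8 with no length, a change that follows from the lengths alone. Leaving out each replicate was not run, since the tables hold no values per library. No paired analysis was possible because the tables give means and fold changes over all libraries, and no column carries a replicate number.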
